A study of Homo sapiens with 12 samples.

Results

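Interferon-stimulated genes are the genes that cells switch on after an interferon has bound its receptor, and 46 of them were followed here across 6 small interfering RNA (siRNA) treatments of human fibroblasts. The 46 were chosen by symbol from the 13937 genes of the deposited expression table and exclude the IFIT, OAS, MX, IFI6 and IFI27 genes. All 46 symbols were present, and all 46 passed the filter of 1 CPM (reads scaled to the size of the library) reached in at least 2 libraries. RSAD2, CMPK2, RTP4 and PARP10 were below 1 CPM in both control libraries and passed through other groups. The 46 genes encode the ubiquitin-like protein ISG15 and its enzymes, RNA and DNA sensors and helicases, and enzymes that act on nucleotides and RNA. They also encode ADP-ribosyltransferases, TRIM proteins (mostly ubiquitin ligases), membrane proteins that hinder virus entry or release, nuclear body proteins and other interferon-induced proteins.

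Type I interferons signal through a receptor bound to the kinases JAK1 and TYK2, which phosphorylate transcription factors, among them STAT2. STAT2 joins IRF9 in a complex that binds a promoter element with paired GAAA motifs, the interferon-stimulated response element (ISRE). A route to interferon in fibroblasts starts from the sensor cGAS, which detects DNA in the cytosol and makes a cyclic dinucleotide that activates the adaptor STING, although part of this gene set also keeps a basal level with no infection.

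WI-38 cells, which are human lung fibroblasts, were transfected with siRNAs, and messenger RNA was sequenced from its 3' ends. The 12 libraries form 6 groups of 2. The control group received only a control siRNA. The YT group received siRNAs against YAP and TAZ, the coactivators of the Hippo pathway. The cGAS group received siRNA against cGAS, and the STING group received siRNA against STING. Each of these groups was filled up with control siRNA. The cGAS_YT and STING_YT groups received the cGAS or the STING siRNA together with the YAP and TAZ siRNAs. In the library titles the cGAS and STING siRNAs carry a multiple, which the control siRNA and the YAP and TAZ siRNAs lack. Whether it means several siRNAs or a larger amount is not said, and its part in the results was not tested. No group received an interferon, a virus or DNA as a stimulus, and every group carries transfected siRNA. The labels do not say whether the 2 libraries of a group come from different cultures, and the p-values then cover only the spread among these libraries, which may be technical.

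The libraries held 17790774 to 20650727 reads, so that 3 reads correspond to 0.142 to 0.170 CPM. The targeted transcripts were lowered in the groups labelled for them. MB21D1, which encodes cGAS, stood at 23.6% of the control mean in cGAS and 18.7% in cGAS_YT, and TMEM173, which encodes STING, stood at 7.39% in STING and 6.66% in STING_YT. YAP1 stood at 13.4% in YT, 13.1% in STING_YT and 21.1% in cGAS_YT, where its level was above that of YT by 0.63 ± 0.13 (adjusted p = 0.00109). WWTR1, which encodes TAZ, stood at 8.70% to 14.2% in the 3 groups given its siRNA. It was also lower in groups not given it, at -0.53 ± 0.12 (adjusted p = 0.00426) in cGAS and -0.46 ± 0.12 (adjusted p = 0.0183) in STING. All 12 fibroblast markers examined were present. They summed to 33053 to 33623 CPM in control, 30222 to 30439 in STING and 26951 to 28611 in YT. The sums were 34187 to 36875 in STING_YT and 23104 to 26165 in the 4 libraries with cGAS siRNA. Single markers differed in direction after cGAS siRNA alone. COL1A1, VIM, PDGFRB and S100A4 were called lower than in control, LUM and FBN1 were called higher, and the rest were not called. Of 8 leukocyte markers only CD14 and CD68 were in the table (3.83 to 6.56 CPM summed over both, in any library), of 8 epithelial markers only KRT8, KRT18 and KRT19 (24.5 to 56.0 CPM), and of 5 endothelial markers none. The part of these markers in the results was not tested. In bulk RNA, a higher level per cell and a larger share of responding cells cannot be told apart.

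The libraries cGAS_YT 9 and cGAS_YT 10 stood apart from each other in these genes. All 46 were higher in library 9, with a median difference of 0.74 on the scale of log2(CPM + 1), and 33 of the 46 (71.7%) were more than 1.5-fold apart, against 4.17% of all genes tested. ISG15, for instance, was at 533 CPM in library 9 and 239.7 CPM in library 10. The STING libraries also stood apart, less widely. There 7 of the 46 (15.2%) were more than 1.5-fold apart, against 3.19% of all genes, and 43 of the 46 were higher in library 14 than in library 13, with a median difference of -0.23 (13 minus 14). In the other 4 groups 1 to 5 of the 46 (2.17% to 10.9%) were that far apart, against 2.71% to 9.82% of all genes. Medians or counts that rest on cGAS_YT are given with both libraries and with each left out.

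**Figure D1:**
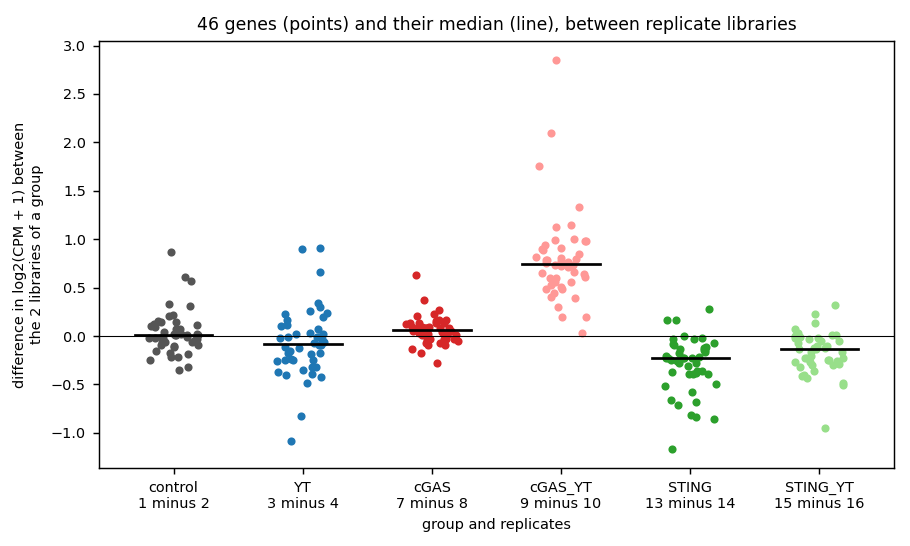
Difference in log2(CPM + 1) between the 2 libraries of each group (vertical axis) for each of the 46 genes (points), with the median as a line. The points of cGAS_YT all lie above 0 around a median of 0.74, while the medians of the other groups lie between -0.23 and 0.07.

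Promoter sequence gives a view of these genes that does not depend on the read counts. RefSeq promoter windows on GRCh38.p14, running from 250 bases before to 50 bases after a transcript start, were at hand for 40 of the 46 genes. The ISRE core, which is GAAA, any 2 bases and GAAA again (on the other strand TTTC, any 2 bases and TTTC), was found in a window of 28 of the 40 (70.0%), against 4.38% of 27305 genes with windows. The other interferon element, the gamma-activated site TTCNNNGAA, was found for 9 of the 40 (22.5%) against 9.38% of all genes. These matches are letters in a window and say nothing of binding. The sequences are the 170 bases before the start of 4 genes with large differences after cGAS siRNA (ISG15, IFI44L, RSAD2 and BST2) and of the neighbours IFITM1 and IFITM3, both of which hold a match although only IFITM1 rose in that comparison. Their capitals mark the ISRE core matches, overlapping ones run together.
ISG15, chr1:1013327-1013496, plus strand: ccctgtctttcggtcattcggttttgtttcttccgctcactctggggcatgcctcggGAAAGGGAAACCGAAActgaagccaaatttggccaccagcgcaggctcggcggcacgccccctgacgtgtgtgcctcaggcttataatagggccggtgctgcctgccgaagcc
IFI44L, chr1:78620278-78620447, plus strand: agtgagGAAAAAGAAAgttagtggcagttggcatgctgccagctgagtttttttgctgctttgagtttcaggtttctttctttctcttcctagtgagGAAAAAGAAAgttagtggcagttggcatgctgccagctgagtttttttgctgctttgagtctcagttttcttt
RSAD2, chr2:6877607-6877776, plus strand: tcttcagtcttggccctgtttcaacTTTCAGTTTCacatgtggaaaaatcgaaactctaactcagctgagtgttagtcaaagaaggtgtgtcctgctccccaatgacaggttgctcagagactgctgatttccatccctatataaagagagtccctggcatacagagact
BST2, chr19:17405631-17405800, minus strand: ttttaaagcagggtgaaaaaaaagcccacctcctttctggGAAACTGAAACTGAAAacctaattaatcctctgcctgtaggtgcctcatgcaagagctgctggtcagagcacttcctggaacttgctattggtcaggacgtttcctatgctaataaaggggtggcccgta
IFITM1, chr11:313870-314039, plus strand: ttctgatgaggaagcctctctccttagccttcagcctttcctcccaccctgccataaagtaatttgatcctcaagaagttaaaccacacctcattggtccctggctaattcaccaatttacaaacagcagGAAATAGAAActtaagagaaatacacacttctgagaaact
IFITM3, chr11:320861-321030, minus strand: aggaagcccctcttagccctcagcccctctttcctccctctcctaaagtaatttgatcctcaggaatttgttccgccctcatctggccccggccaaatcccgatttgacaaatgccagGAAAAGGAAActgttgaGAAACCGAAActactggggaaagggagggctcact
In ISG15 and BST2 a pair of matches overlaps, which gives an unbroken run with 3 GAAA motifs in both. In ISG15 they begin 113 and 107 bases before the start, and in BST2 130 and 124 bases before it. The matches of IFI44L begin 164 and 73 bases before the start. RSAD2 has its match on the opposite strand, 145 bases before the start. IFITM3 has matches 52 and 35 bases before its start and IFITM1 a match 40 bases before, while a further one in IFITM1 begins 6 bases before the start, runs past it and is not marked. Among the 40 genes, the median difference between cGAS and control was 1.42 for the 28 with an ISRE core and 1.31 for the 12 without.

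Most of the 46 genes were highest in the groups given cGAS siRNA. The group means of cGAS and cGAS_YT were the 2 highest of the 6 for 40 of the 46 (87.0%), against 12.8% of all genes tested. For 31 of the 46 (67.4%, against 6.18% of all genes) each of the 4 libraries with cGAS siRNA lay above each of the 8 others. These counts were 35 and 31 without library 9 of cGAS_YT, against 11.6% and 6.56% of all genes. They were 42 and 37 without library 10, against 13.3% and 7.59% of all genes. The control group had the lowest mean for 26 of the 46 (56.5%, against 13% of all genes), and for 15 without STING 14 (32.6%, against 12% of all genes). Summed over the 46 genes, the level was 3796 and 3902 CPM in control, 4712 and 5502 in YT, 8187 and 7948 in cGAS, 9579 and 5921 in cGAS_YT, 4048 and 4681 in STING, and 4891 and 5120 in STING_YT (pairs of values are in replicate order here and below). Without the IFITM genes the sums were 2419 and 2422 in control, 2967 and 3209 in YT, and 2356 and 2697 in STING. They were 2831 and 3033 in STING_YT, 6150 and 5964 in cGAS, and 7321 and 4544 in cGAS_YT. By either sum the 4 libraries with cGAS siRNA had the 4 highest values, and cGAS_YT held both the highest and the lowest of these 4.

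**Figure D2:**
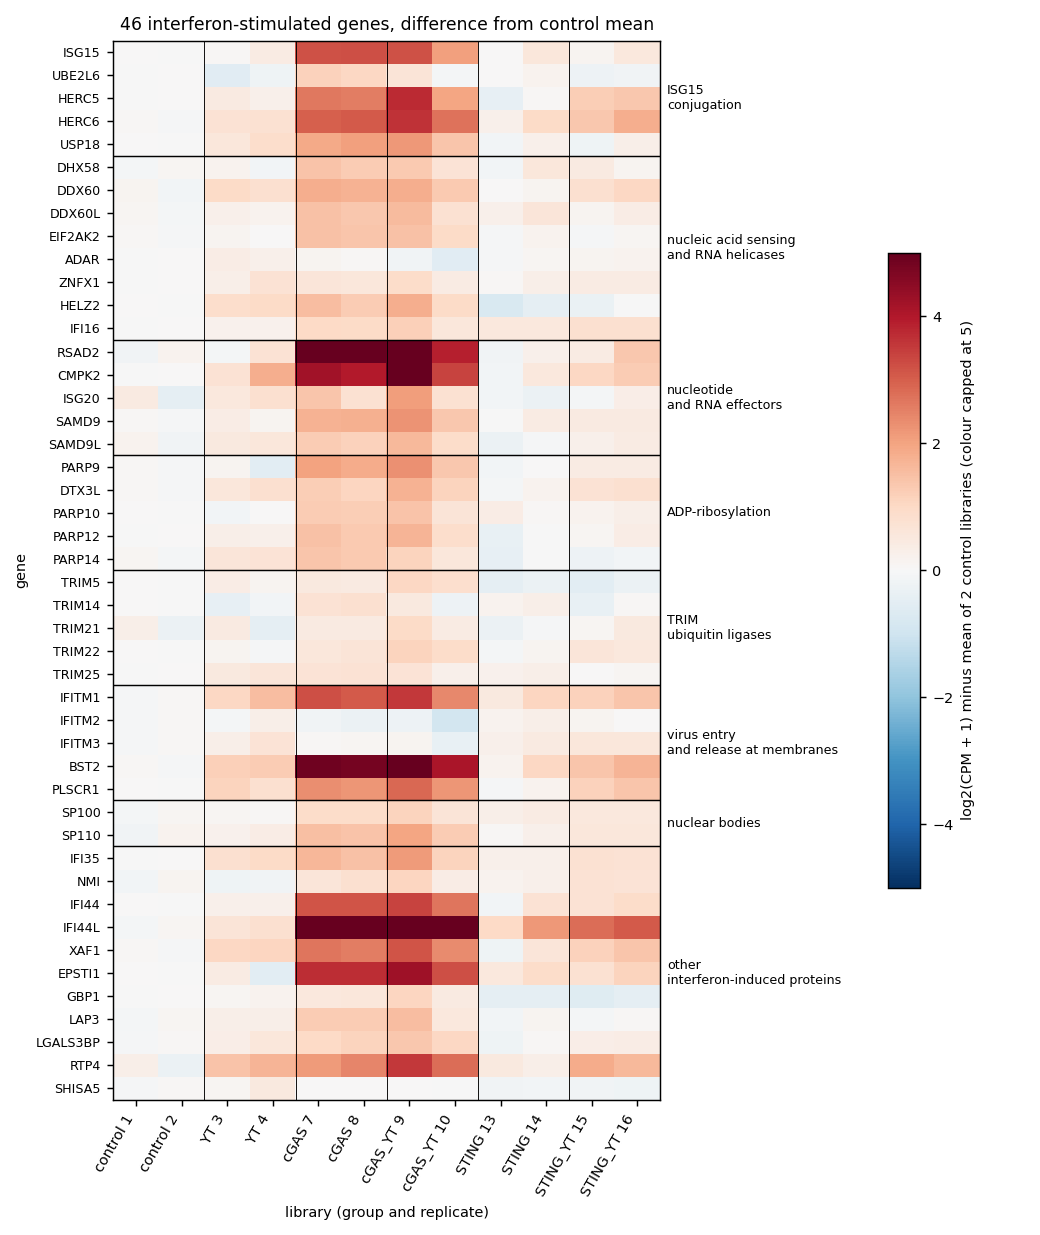
Difference of each library (columns) from the mean of the control libraries in log2(CPM + 1), for the 46 genes (rows) ordered by role; the colour scale ends at 5 in either direction, which RSAD2, IFI44L, CMPK2 and BST2 pass. The columns of cGAS and cGAS_YT carry most of the red, library 10 less of it than library 9, and IFITM2, IFITM3, SHISA5 and ADAR stay pale or turn blue there.

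After cGAS siRNA alone, 41 of the 46 genes (89.1%) were higher than in control at an adjusted p under 0.05 (limma, Benjamini-Hochberg), where 11.1% of all genes tested were higher. None was called lower, against 14.3% of all genes. No member had an unadjusted p under 0.05 in that direction, and edgeR and DESeq2 also called 0 lower. The median difference was 1.37 on the scale of log2(CPM + 1), against -0.02 over all genes. The genes that missed the threshold were ADAR, IFITM2, IFITM3, SHISA5 and TRIM21. With any of the 4 libraries left out, 38 to 40 genes were called higher. After the YAP and TAZ siRNAs, 21 of the 46 (45.7%) were higher than in control and none lower, where 20.6% of all genes tested were higher and 20.9% lower. The median was 0.30 against 0.00 over all genes. After STING siRNA, 4 of the 46 (8.70%) were higher and 3 (6.52%) lower, where 6.14% and 8.86% of all genes tested were, so these shares lay near the background. With any of the 4 libraries left out, 1 to 3 were called higher and 0 lower, and of the 7 genes only IFI44L was called each time. These 3 comparisons share the control libraries. Their calls rest on a spread taken from all libraries, and fits of only the groups compared changed some counts. Such fits called a member lower after cGAS siRNA and more members higher after STING siRNA.

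**Figure D3:**
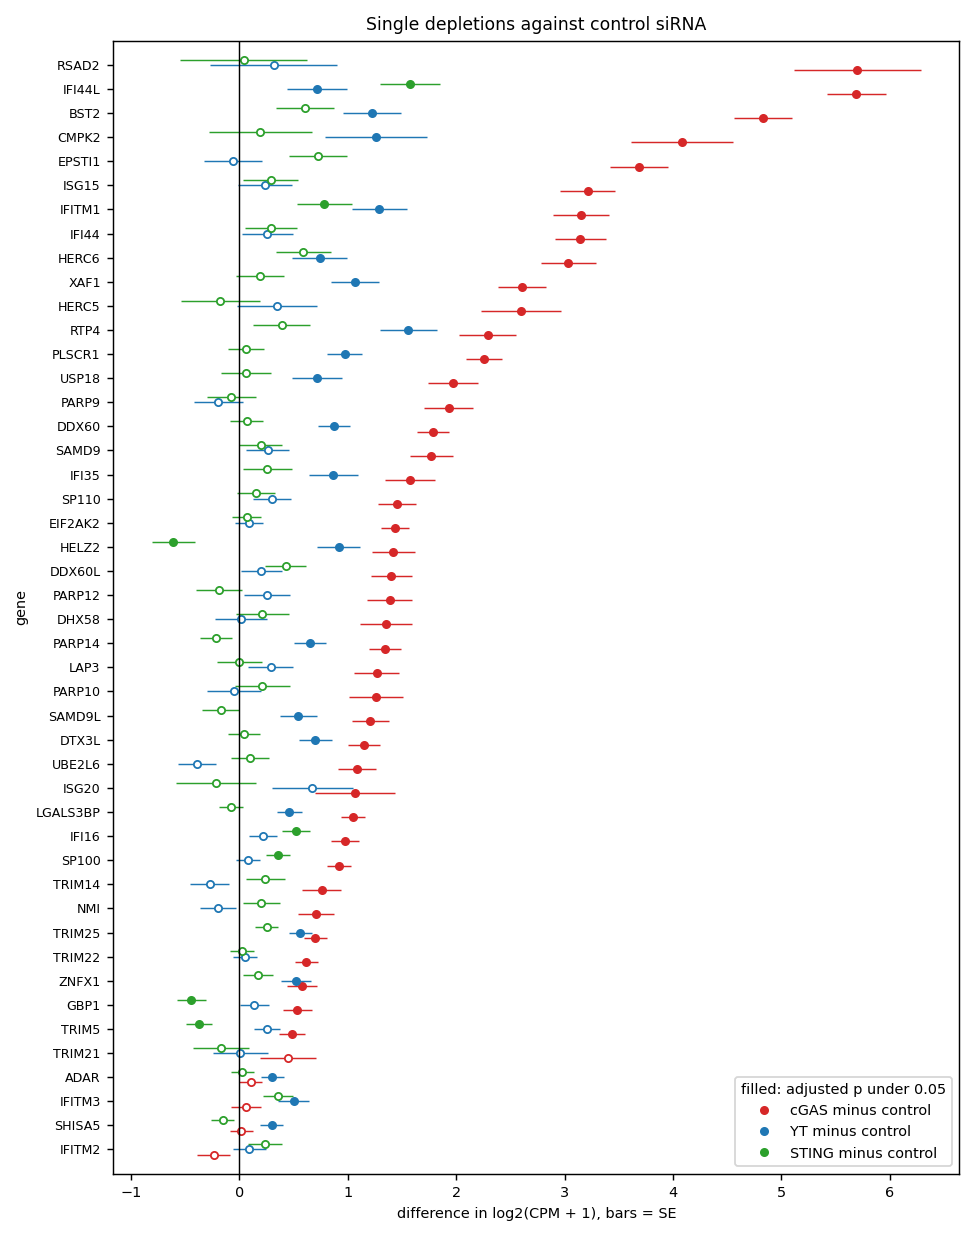
Difference from control in log2(CPM + 1) with its standard error (horizontal axis) for the 46 genes, ordered by the cGAS siRNA effect; red is cGAS, blue YT and green STING, and filled points have an adjusted p under 0.05. The red points reach 5.70 for RSAD2, while the green ones stay between -0.61 and 1.58.

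ISG15 is a ubiquitin-like protein that is joined to target proteins by the E2 enzyme UBE2L6 and the E3 ligase HERC5 and removed by USP18. All 5 genes of this group, HERC6 included, rose after cGAS siRNA, with a median of 2.59. 0.74 for HERC6 and 0.72 for USP18 were the differences of the 2 that rose after the YAP and TAZ siRNAs, and none of the 5 was called after STING siRNA. ISG15 stood at 57.9 and 57.1 CPM in control, 60.1 and 76.8 in YT, 533 and 549 in cGAS, 533 and 239.7 in cGAS_YT, 58.8 and 84.5 in STING and 62.7 and 83 in STING_YT. Both cGAS libraries lay far above every library without cGAS siRNA, a rise of 3.21 ± 0.25 (adjusted p = 1.55e-07) or 9.4-fold in mean CPM. HERC6, a relative of HERC5, stood at 4.98 and 4.55 CPM in control, 8.61 and 8.64 in YT, 44.7 and 47.8 in cGAS, 70.1 and 36.8 in cGAS_YT, 5.78 and 10.1 in STING and 13.5 and 19.3 in STING_YT. Its libraries with cGAS siRNA and the others did not overlap, and it rose by 3.04 ± 0.26 (adjusted p = 3.44e-07) after cGAS siRNA. UBE2L6 stood at 48.9 and 50.1 CPM in control, 33.5 and 42 in YT, 111 and 101 in cGAS, 78.9 and 45.7 in cGAS_YT, 50.6 and 55.5 in STING and 41.6 and 43.2 in STING_YT. It rose by 1.09 ± 0.17 (adjusted p = 0.000217) after cGAS siRNA, and library 10 of cGAS_YT fell among the libraries without that siRNA. HERC5, the main ligase for ISG15 in human cells, stood at 1.66 and 1.7 CPM in control, 2.69 and 2.16 in YT, 15.7 and 14.7 in cGAS, 35 and 9.65 in cGAS_YT, 0.998 and 1.82 in STING and 5.27 and 5.74 in STING_YT, a rise of 2.59 ± 0.37 (adjusted p = 7.1e-05) after cGAS siRNA. Its STING_YT libraries were both above its STING libraries, with a difference of 1.45 ± 0.37 (adjusted p = 0.00496). That call was lost without library 13 of STING, at 1.20 ± 0.45 (adjusted p = 0.0634).

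Of the 8 sensors and helicases, 7 rose after cGAS siRNA, with a median of 1.37 over the 8, and 4 rose after the YAP and TAZ siRNAs (DDX60, ADAR, ZNFX1 and HELZ2). DDX60, a helicase that aids RNA sensing, stood at 24.1 and 19.3 CPM in control, 42.7 and 37.9 in YT, 79 and 74.6 in cGAS, 78.2 and 54.7 in cGAS_YT, 21.7 and 23.6 in STING and 38 and 45.1 in STING_YT. All other groups except STING lay above its control libraries, and its rise was 1.79 ± 0.15 (adjusted p = 3.6e-07) after cGAS siRNA and 0.87 ± 0.15 (adjusted p = 0.000217) after the YAP and TAZ siRNAs. EIF2AK2 encodes the kinase PKR, which binds double-stranded RNA and halts translation. It stood at 177 and 159 CPM in control, 186 and 171 in YT, 467 and 442 in cGAS, 469 and 326 in cGAS_YT, 162 and 189.8 in STING and 159 and 178 in STING_YT. The 4 libraries with cGAS siRNA lay above the rest, with a rise of 1.43 ± 0.13 (adjusted p = 8.68e-07) in cGAS. Its last 500 annotated bases overlap exons of GPATCH11 on the opposite strand, and reads of the 2 genes may not be told apart. ADAR, which edits adenosine to inosine in double-stranded RNA, stood at 156 and 159 CPM in control, 201 and 188 in YT, 175 and 164 in cGAS, 139 and 105 in cGAS_YT, 153 and 169 in STING and 176 and 178 in STING_YT. It was the member of this group with the smallest difference after cGAS siRNA, 0.10 ± 0.11 (adjusted p = 0.521), and its cGAS libraries lay between control and YT. HELZ2, a helicase and nuclear coactivator, stood at 56.7 and 53.9 CPM in control, 102 and 108 in YT, 164 and 136 in cGAS, 199 and 107 in cGAS_YT, 32 and 40.1 in STING and 44.2 and 54.5 in STING_YT. Its STING libraries were both below control, and the fall of 0.61 ± 0.20 (adjusted p = 0.0465) was lost with any of the 4 libraries left out, at adjusted p up to 0.315. IFI16, a DNA-binding protein of the nucleus and cytosol, rose by 0.98 ± 0.13 (adjusted p = 3.63e-05) after cGAS siRNA and by 0.52 ± 0.13 (adjusted p = 0.0119) after STING siRNA. The latter call was lost with any of its 4 libraries left out (adjusted p up to 0.0908), although the difference stayed between 0.49 and 0.55.

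Among the enzymes that act on nucleotides and RNA, all 5 rose after cGAS siRNA, with a median of 1.77. RSAD2 encodes viperin, a radical enzyme that makes a chain-terminating nucleotide from CTP, and CMPK2 is the nucleotide kinase encoded beside it. RSAD2 stood at 0.208 and 0.511 CPM in control, 0.264 and 1.23 in YT, 78.9 and 60.8 in cGAS, 144 and 19.1 in cGAS_YT, 0.21 and 0.59 in STING and 0.777 and 2.44 in STING_YT. The control values rest on 4 and 9 reads and those of cGAS on 1424 and 1239 reads. Its rise of 5.70 ± 0.59 (adjusted p = 2.85e-06) was the highest of the 46, and library 10 of cGAS_YT was far below library 9 though far above all libraries without cGAS siRNA. CMPK2 stood at 0.208 and 0.227 CPM in control, 1.0 and 3.24 in YT, 21.3 and 18.1 in cGAS, 53.4 and 11.7 in cGAS_YT, 0.105 and 0.751 in STING and 1.5 and 1.93 in STING_YT, where the control values are 4 reads each. It rose by 4.08 ± 0.47 (adjusted p = 9.78e-06) after cGAS siRNA and by 1.26 ± 0.47 (adjusted p = 0.0422) after the YAP and TAZ siRNAs. The latter call was lost without control 1, without control 2 and without YT 4 (adjusted p up to 0.257, difference 0.72 to 1.80). ISG20, an exonuclease that degrades RNA, stood at 2.28 and 0.795 CPM in control, 2.54 and 3.24 in YT, 5.32 and 3.09 in cGAS, 9.35 and 3.11 in cGAS_YT, 1.21 and 0.966 in STING and 1.28 and 2.08 in STING_YT. Its cGAS libraries lay above control, and its rise of 1.07 ± 0.37 (adjusted p = 0.0435) was lost without control 2, without cGAS 7 and without cGAS 8, at adjusted p up to 0.361. SAMD9 and SAMD9L, restriction factors for poxviruses, rose by 1.77 ± 0.20 (adjusted p = 6.65e-06) and 1.21 ± 0.17 (adjusted p = 7.74e-05) after cGAS siRNA.

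PARP9 and DTX3L form a complex that modifies histones and other proteins, and PARP10, PARP12 and PARP14 transfer ADP-ribose to proteins or RNA. All 5 genes rose after cGAS siRNA, with a median of 1.35, and none was called after STING siRNA. PARP9 stood at 32.3 and 28.9 CPM in control, 33.7 and 20.9 in YT, 125 and 114 in cGAS, 152 and 78.9 in cGAS_YT, 27.4 and 30.7 in STING and 41.5 and 41.2 in STING_YT. It rose by 1.93 ± 0.22 (adjusted p = 1.02e-05) after cGAS siRNA, and its YT libraries lay on either side of control. DTX3L stood at 96.7 and 87.4 CPM in control, 138 and 163 in YT, 215 and 195 in cGAS, 308 and 202 in cGAS_YT, 85.9 and 104 in STING and 151 and 163 in STING_YT. Both YT libraries were above control, with a rise of 0.70 ± 0.15 (adjusted p = 0.00124), and the rise after cGAS siRNA was 1.15 ± 0.15 (adjusted p = 3e-05). PARP12 stood at 11.1 and 11.1 CPM in control, 13.6 and 13.3 in YT, 32.4 and 28.9 in cGAS, 38.5 and 21 in cGAS_YT, 8.35 and 11 in STING and 12.1 and 14.7 in STING_YT, a rise of 1.38 ± 0.21 (adjusted p = 0.000139) after cGAS siRNA. PARP14 stood at 117 and 101 CPM in control, 166 and 177 in YT, 282 and 274 in cGAS, 239 and 161 in cGAS_YT, 81.7 and 107 in STING and 90.1 and 98.7 in STING_YT. Its cGAS libraries were the highest, above both libraries of cGAS_YT, and its rise was 1.35 ± 0.15 (adjusted p = 5.57e-06) after cGAS siRNA and 0.65 ± 0.15 (adjusted p = 0.00207) after the YAP and TAZ siRNAs.

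The TRIM genes had the lowest median of the 8 role groups after cGAS siRNA, 0.62. Of the 5, 4 rose, none by 2-fold on the log2(CPM + 1) scale, and TRIM21 was not called. TRIM14, which has no RING domain and binds MAVS, stood at 72 and 71 CPM in control, 54 and 64.5 in YT, 119 and 125 in cGAS, 101 and 59.2 in cGAS_YT, 80.2 and 88.9 in STING and 55.6 and 74.4 in STING_YT. Library 10 of cGAS_YT was among its low values, and its rise was 0.76 ± 0.18 (adjusted p = 0.0051) after cGAS siRNA. TRIM25, the ligase that aids the RNA sensor RIG-I, stood at 94.4 and 98.6 CPM in control, 137 and 149 in YT, 156 and 159 in cGAS, 154 and 116 in cGAS_YT, 112 and 118 in STING and 97.3 and 102 in STING_YT. YT, cGAS and STING lay above its control libraries while STING_YT lay close to them. The rise was 0.70 ± 0.11 (adjusted p = 0.000145) after cGAS siRNA and 0.56 ± 0.11 (adjusted p = 0.000497) after the YAP and TAZ siRNAs, with 0.25 ± 0.11 (adjusted p = 0.132) after STING siRNA. Its last 500 annotated bases overlap exons of DGKE on the opposite strand. TRIM21, a receptor for antibody in the cytosol, stood at 20.9 and 13.4 CPM in control, 23.3 and 12.1 in YT, 23.4 and 23.1 in cGAS, 33.3 and 22.3 in cGAS_YT, 13.4 and 16.3 in STING and 18.2 and 23.6 in STING_YT. Its control libraries overlapped with YT, STING and STING_YT, and its difference after cGAS siRNA was 0.45 ± 0.26 (adjusted p = 0.221). TRIM22, which restricts viral transcription, rose by 0.62 ± 0.11 (adjusted p = 0.000511) after cGAS siRNA, and its last 500 annotated bases overlap exons of OR56B1 on the same strand. TRIM5, which binds the capsids of retroviruses, stood at 33.8 and 33.5 CPM in control, 43.9 and 37.2 in YT, 48.3 and 46.6 in cGAS, 69.3 and 60.3 in cGAS_YT, 24.1 and 27.4 in STING and 23 and 27.5 in STING_YT. Both STING and both STING_YT libraries were below control and both libraries of cGAS_YT were the highest. It rose by 0.48 ± 0.12 (adjusted p = 0.00745) after cGAS siRNA, a call lost without cGAS 7 (adjusted p = 0.0646), and fell by 0.38 ± 0.12 (adjusted p = 0.0455) after STING siRNA, a call lost with any of the 4 libraries left out (adjusted p up to 0.305).

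Of the 5 membrane proteins, 3 rose after cGAS siRNA (BST2, IFITM1 and PLSCR1), and IFITM2 had the lowest difference of all 46 genes. BST2, or tetherin, holds budding viruses at the cell surface. It stood at 2.8 and 2.5 CPM in control, 7.34 and 7.72 in YT, 105 and 99.7 in cGAS, 121 and 60.4 in cGAS_YT, 3.15 and 6.44 in STING and 8.61 and 10.8 in STING_YT. Its 4 libraries with cGAS siRNA lay above all others and its YT libraries lay above control and STING. It rose by 4.83 ± 0.27 (adjusted p = 4.41e-09) after cGAS siRNA, 38.7-fold in mean CPM, and by 1.23 ± 0.27 (adjusted p = 0.00157) after the YAP and TAZ siRNAs. IFITM1, IFITM2 and IFITM3 are small membrane proteins that stop viruses from fusing with the cell. IFITM1 stood at 68.3 and 76.2 CPM in control, 150.2 and 210.4 in YT, 683 and 616 in cGAS, 848 and 388 in cGAS_YT, 102 and 153 in STING and 163 and 192 in STING_YT. Every other group lay above its control libraries, with rises of 3.15 ± 0.26 (adjusted p = 2.18e-07) after cGAS siRNA and 1.29 ± 0.26 (adjusted p = 0.0007) after the YAP and TAZ siRNAs. IFITM3 stood at 1044 and 1122 CPM in control, 1338 and 1751 in YT, 1115 and 1143 in cGAS, 1181 and 843 in cGAS_YT, 1281 and 1495 in STING and 1594 and 1618 in STING_YT. Its cGAS libraries overlapped with control, with a difference of 0.06 ± 0.14 (adjusted p = 0.797), while it rose by 0.5 ± 0.14 (adjusted p = 0.00938) after the YAP and TAZ siRNAs, a call lost without control 1 and without YT 4 (adjusted p up to 0.0730). IFITM2 stood at 265 and 282 CPM in control, 256 and 332 in YT, 239 and 225 in cGAS, 229 and 146 in cGAS_YT, 309 and 336 in STING and 303 and 276 in STING_YT, and its difference after cGAS siRNA was -0.24 ± 0.15 (adjusted p = 0.284). The 3 IFITM genes share sequence near their 3' ends. Of the stretches of 50 bases there, 70.6% in IFITM1, 42.2% in IFITM2 and 20.1% in IFITM3 occur in another gene as well, and annotated exons of IFITM1 and IFITM2 overlap on the same strand. Their separate values are uncertain as far as the counting split such reads. PLSCR1, a phospholipid scramblase that hinders virus entry, rose by 2.26 ± 0.16 (adjusted p = 8.57e-08) after cGAS siRNA and 0.97 ± 0.16 (adjusted p = 0.000183) after the YAP and TAZ siRNAs.

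**Figure D4:**
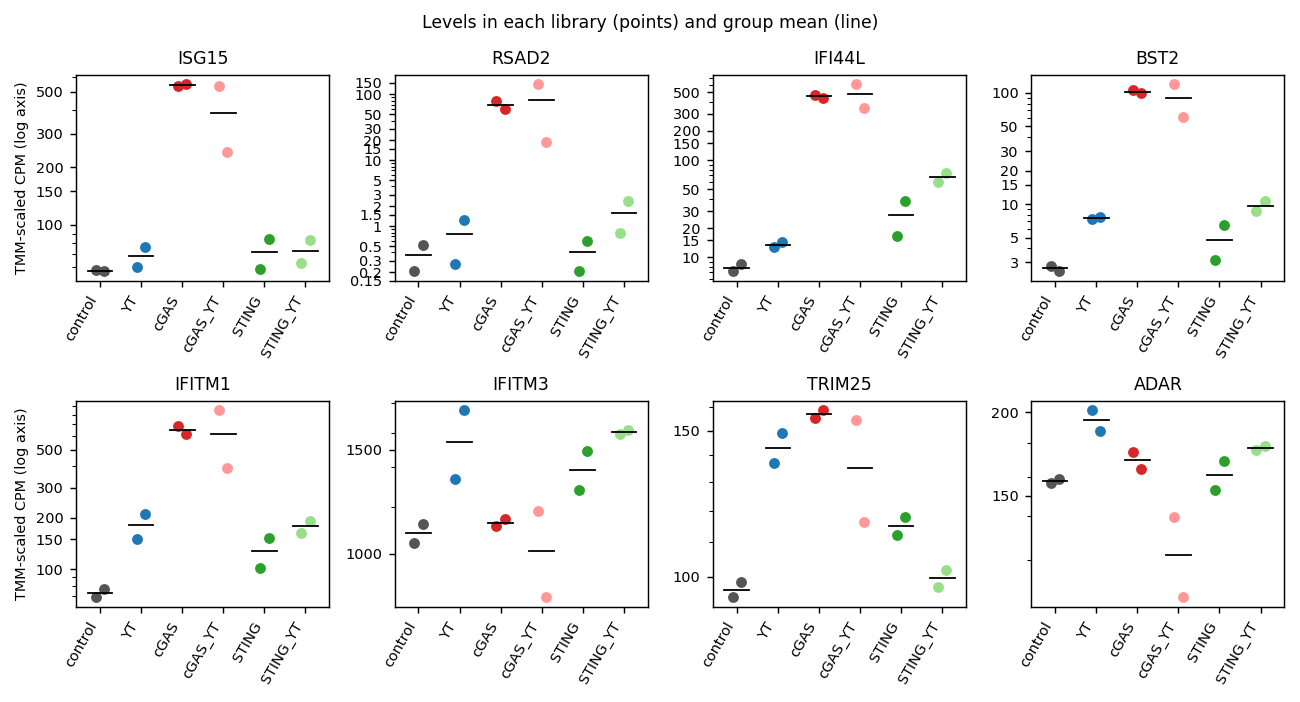
Level in each library (points, TMM-scaled CPM on log axes that differ between panels) and group mean (line) for 8 of the genes. ISG15, RSAD2, IFI44L, BST2 and IFITM1 are high in cGAS and cGAS_YT, whereas IFITM3 and ADAR are not, and TRIM25 is near its control level in STING_YT.

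SP100 and SP110 are proteins of nuclear bodies that restrict the transcription of viral genomes. Both rose after cGAS siRNA. SP110 stood at 20.4 and 26.4 CPM in control, 26.9 and 30.7 in YT, 67.4 and 63.3 in cGAS, 93.6 and 56.8 in cGAS_YT, 23.9 and 27.9 in STING and 34.8 and 34.7 in STING_YT, with no overlap between the libraries with cGAS siRNA and the rest, and its rise was 1.45 ± 0.18 (adjusted p = 1.53e-05). The ends of SP110 and XAF1 overlap exons of other annotated genes on the opposite strand. SP100 stood at 84.3 and 96.4 CPM in control, 95.8 and 94.7 in YT, 173 and 169.6 in cGAS, 195 and 142 in cGAS_YT, 112 and 119 in STING and 129 and 129 in STING_YT. It rose by 0.92 ± 0.11 (adjusted p = 1.97e-05) after cGAS siRNA and by 0.36 ± 0.11 (adjusted p = 0.0454) after STING siRNA, where both STING libraries lay above control. That latter call was lost with any of its 4 libraries left out, at adjusted p up to 0.299.

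Of the 11 other interferon-induced proteins, 10 rose after cGAS siRNA, with a median of 1.57. IFI44L, an interferon-induced protein of uncertain function that is widely used as a marker of the response, stood at 7.21 and 8.52 CPM in control, 12.7 and 14.4 in YT, 472 and 441 in cGAS, 610.1 and 345 in cGAS_YT, 16.6 and 38.5 in STING and 59.8 and 73.7 in STING_YT. The groups stood in separate ranges except cGAS and cGAS_YT, and the cGAS libraries were 58-fold above control in mean CPM. It rose by 5.69 ± 0.27 (adjusted p = 8.34e-10) after cGAS siRNA and by 1.58 ± 0.27 (adjusted p = 0.000955) after STING siRNA. The latter was the only rise after STING siRNA that was called with each of the 4 libraries left out, at differences of 0.99 to 2.16. EPSTI1, first described as induced in epithelium by stroma, stood at 13.2 and 13 CPM in control, 17.5 and 8.9 in YT, 181 and 179.6 in cGAS, 262 and 132 in cGAS_YT, 19.5 and 25.4 in STING and 23.2 and 29.1 in STING_YT. Its YT libraries lay on either side of control, and it rose by 3.68 ± 0.27 (adjusted p = 8.55e-08) after cGAS siRNA. SHISA5, a membrane protein linked to cell death, stood at 298 and 323 CPM in control, 332 and 439 in YT, 311 and 318 in cGAS, 316 and 308 in cGAS_YT, 275 and 282 in STING and 272 and 267 in STING_YT. Its cGAS libraries overlapped with control (0.02 ± 0.10 (adjusted p = 0.922)), and YT 4 was its highest value. GBP1, a guanylate-binding GTPase, stood at 246 and 258 CPM in control, 266 and 289 in YT, 362 and 369 in cGAS, 530.2 and 349 in cGAS_YT, 183 and 186 in STING and 167 and 182 in STING_YT. All STING and STING_YT libraries lay below control, and those with cGAS siRNA lay above it. It rose by 0.54 ± 0.13 (adjusted p = 0.00647) after cGAS siRNA, a call lost without control 1 and without cGAS 8 (adjusted p up to 0.0508), and fell by 0.44 ± 0.13 (adjusted p = 0.0312) after STING siRNA, a call lost with any library left out (adjusted p up to 0.150). RTP4, a Golgi chaperone for receptors, stood at 0.571 and 0.0568 CPM in control, 2.48 and 3.14 in YT, 4.71 and 5.94 in cGAS, 14 and 7.89 in cGAS_YT, 0.788 and 0.59 in STING and 3.61 and 2.95 in STING_YT. Control library 2 holds a single read, so no fold is given, and on the log2(CPM + 1) scale it rose by 2.29 ± 0.27 (adjusted p = 9.99e-06) after cGAS siRNA and 1.56 ± 0.27 (adjusted p = 0.000188) after the YAP and TAZ siRNAs. XAF1, which promotes cell death, rose by 2.61 ± 0.22 (adjusted p = 3.72e-07) and 1.06 ± 0.22 (adjusted p = 0.00107) in the same comparisons. The remaining 5 genes (IFI35, NMI, IFI44, LAP3 and LGALS3BP) rose by 0.70 to 3.14 after cGAS siRNA, the lowest for NMI and the highest for IFI44.

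The 21 genes that rose after the YAP and TAZ siRNAs were spread over 7 of the 8 role groups, with none in the nuclear body pair. RTP4, IFITM1, CMPK2, BST2 and XAF1 passed 1 on the log2(CPM + 1) scale and the other 16 rose by 0.30 (SHISA5) to 0.97 (PLSCR1). Of the 21, 18 also rose after cGAS siRNA, and ADAR, IFITM3 and SHISA5 did not. That share is near the share of all members, of which 41 of 46 rose after cGAS siRNA, where 11.1% of all genes tested did. This is a side by side count of comparisons that share the control libraries. The lowest difference was that of UBE2L6, whose YT libraries were both below control (-0.39 ± 0.17 (adjusted p = 0.0833)). edgeR called 20 and DESeq2 called 19 members higher, and 19 were called by limma, edgeR and DESeq2 alike. With each of the 4 libraries left out in turn, 14 to 20 members were called higher, and 12 of the 21 were called each time. The 14 came without control 1. No member was called lower by limma, edgeR or DESeq2, while 1 had an unadjusted p under 0.05 in that direction.

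The direct comparison of the 2 single depletions, which share no library, asked whether siRNA against the sensor and siRNA against its adaptor left these genes at the same level. Of the 46, 41 (89.1%) were higher in cGAS than in STING, where 16% of all genes tested were, and IFITM2 alone was lower (-0.47 ± 0.15 (adjusted p = 0.0253)), where 17.6% were. The median difference was 1.31 against -0.02 over all genes. BST2 differed by 4.22 ± 0.27 (adjusted p = 1.03e-08), IFI44L by 4.12 ± 0.27 (adjusted p = 1.84e-08) and ISG15 by 2.92 ± 0.25 (adjusted p = 3.01e-07). HELZ2, whose values lay on opposite sides of control, differed by 2.03 ± 0.20 (adjusted p = 1.04e-06). With any library left out 36 or 37 members were higher and none lower. The same contrast in cells also given the YAP and TAZ siRNAs, cGAS_YT against STING_YT, had 37 higher (80.4%, background 19.7%) and 3 lower (6.52%, background 17.2%). The 3 lower genes were ADAR (-0.54 ± 0.11 (adjusted p = 0.000728)), IFITM2 (-0.66 ± 0.15 (adjusted p = 0.00292)) and IFITM3 (-0.69 ± 0.14 (adjusted p = 0.00111)). The median of the 46 in this contrast was 1.04 with both libraries, 0.66 without library 9 and 1.42 without library 10. IFITM2 was no longer called lower without library 10, at -0.34 ± 0.13.

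Adding the cGAS siRNA to the YAP and TAZ siRNAs also raised most of the genes. In cGAS_YT against YT, 36 of the 46 (78.3%) were higher, where 20.5% of all genes tested were, with a median of 0.94 against 0.00. RSAD2 (5.0 ± 0.59 (adjusted p = 4.16e-06)), IFI44L (4.99 ± 0.27 (adjusted p = 7.11e-10)) and EPSTI1 (3.79 ± 0.27 (adjusted p = 1.16e-08)) led. ADAR, IFITM2, IFITM3 and SHISA5 were lower (8.70%, background 20.2%), at -0.68 ± 0.11 (adjusted p = 8.59e-05) for ADAR and -0.29 ± 0.10 (adjusted p = 0.0335) for SHISA5. Without library 9 the median of the 46 was 0.58, with TRIM25 at -0.30 ± 0.10 and SHISA5 no longer called lower. Without library 10 the median was 1.30, and of the lower genes ADAR alone was still called.

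Adding the STING siRNA to the YAP and TAZ siRNAs moved members both ways. In STING_YT against YT, 8 (17.4%, background 16%) were higher and 7 (15.2%, background 18.0%) were lower, shares near those of all genes. The higher ones were IFI44L (2.22 ± 0.27 (adjusted p = 1.13e-05)), EPSTI1, NMI, HERC6, PARP9, IFI16, TRIM22 and SP100. The lower ones were HELZ2 (-1.08 ± 0.20 (adjusted p = 0.000481)), PARP14, USP18, GBP1, TRIM5, TRIM25 and SHISA5. Without STING_YT 16 the higher count was 5. Of the 15, 11 were called with each library left out, and the exceptions were HERC6, USP18, PARP9 and EPSTI1.

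The effect of the YAP and TAZ siRNAs was also measured in cells given the cGAS or the STING siRNA. In STING_YT against STING, 13 of the 46 (28.3%, background 19.1%) were higher and none was lower (background 19.8%), with a median of 0.38 against 0.03 over all genes. edgeR and DESeq2 also called 0 lower, and 1 member had an unadjusted p under 0.05 in that direction. These fits take the spread from all libraries. A fit of only the STING and STING_YT libraries called more members higher and also called some lower. HERC5 (1.45), IFI44L (1.35), RTP4 (1.34), PLSCR1 (1.21) and XAF1 (1.08) passed 1 on the log2(CPM + 1) scale. Of the 13, 7 were called with each library left out (DDX60, DTX3L, TRIM22, PLSCR1, IFI44L, XAF1 and RTP4). The count fell to 7 without STING 13 and to 8 without STING_YT 16. In cGAS_YT against cGAS, 3 genes (6.52%, background 15%) were higher and 4 (8.70%, background 12.7%) lower, with a median of -0.04 against 0.03. TRIM5 (0.44 ± 0.12 (adjusted p = 0.0123)), TRIM22 (0.39 ± 0.11 (adjusted p = 0.0124)) and RTP4 (0.87 ± 0.27 (adjusted p = 0.0214)) were higher. UBE2L6 (-0.81 ± 0.17 (adjusted p = 0.00222)), TRIM14 (-0.65 ± 0.18 (adjusted p = 0.0133)), PARP14 (-0.5 ± 0.15 (adjusted p = 0.0186)) and ADAR (-0.48 ± 0.11 (adjusted p = 0.00275)) were lower.

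The direction of that last comparison turned on single libraries. Without library 9 of cGAS_YT the median of the 46 was -0.45, with ISG15 at -1.17 ± 0.19 and RSAD2 at -1.81 ± 0.39. Without library 10 the median was 0.34, with GBP1 at 0.54 ± 0.10, DTX3L at 0.59 ± 0.13 and HERC5 at 1.15 ± 0.25. Without cGAS 7 or without cGAS 8, fewer members were called than with all libraries. UBE2L6 alone was called with each of the 4 libraries left out, at -1.20 ± 0.14 (adjusted p = 2.14e-05) without library 9 and -0.42 ± 0.14 (adjusted p = 0.0448) without library 10.

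Whether the YAP and TAZ siRNAs acted differently with and without the cGAS siRNA was tested as an interaction, the effect in cGAS-depleted cells minus that in control cells. The knockdown itself differed: YAP1 fell by 2.83 in control cells and by 1.97 in cGAS-depleted cells, an interaction of 0.86 ± 0.19 (adjusted p = 0.00516) that was called with each of the 8 libraries left out. That of WWTR1 was 0.44 ± 0.17 (adjusted p = 0.108). The part of this difference in the results was not tested. Of the 46 genes, 8 (17.4%, background 5.93%) had a negative interaction and none a positive one (background 7.5%), with a median of -0.42 against 0.02 over all genes. edgeR called 0 and DESeq2 0 positive, and 1 member had an unadjusted p under 0.05 in that direction. Negative interactions numbered 8 with edgeR and 9 with DESeq2, and 6 were called by limma, edgeR and DESeq2 alike. The 8 called by limma were BST2, IFITM1, PARP14, DDX60, HELZ2, TRIM25, ADAR and IFITM3. PARP14, for instance, rose by 0.65 ± 0.15 after the YAP and TAZ siRNAs in control cells and fell by 0.50 ± 0.15 in cGAS-depleted cells, an interaction of -1.15 ± 0.21 (adjusted p = 0.00133). DDX60 went from 0.87 ± 0.15 to -0.23 ± 0.15 (0.292 adjusted p for the latter), an interaction of -1.10 ± 0.21 (adjusted p = 0.00229). DDX60, ADAR, PARP14 and TRIM25 were called with each of the 8 libraries left out. The median of the 46 was -0.82 without library 9 and -0.04 without library 10. More members were called without library 9 or without YT 3. Fewer were called without library 10, control 1, control 2, cGAS 7 or cGAS 8. For the STING siRNA the interaction was called for TRIM25 alone (-0.77 ± 0.15 (adjusted p = 0.00412)), so that 1 of the 46 (2.17%, background 4.53%) was negative and 0 were positive (background 3.35%). The median was -0.03. edgeR called 0 positive and 1 negative, DESeq2 0 and 2, and unadjusted p-values under 0.05 numbered 4 and 5. Without YT 3, 4 were positive and 5 negative.

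**Figure D5:**
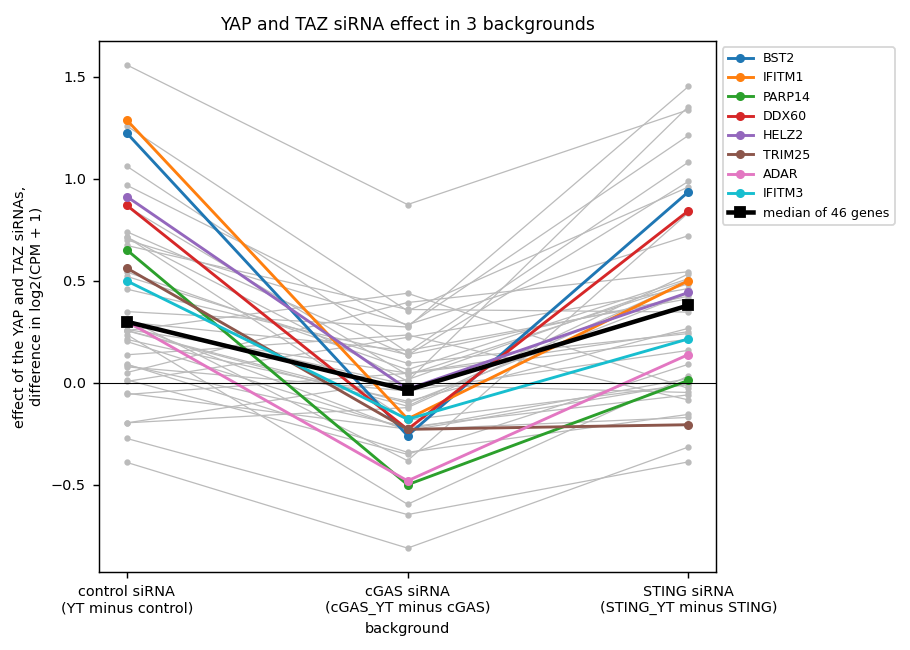
Effect of the YAP and TAZ siRNAs in log2(CPM + 1) (vertical axis) in control, cGAS-depleted and STING-depleted cells, 1 line a gene; coloured lines are the 8 genes with a called interaction with cGAS siRNA and the black line is the median of the 46. The median is 0.30, -0.04 and 0.38 in the 3 backgrounds, and the middle values rest on the 2 cGAS_YT libraries that stood apart.

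Other genes of the pathway were read beside the 46. All 12 IFIT, OAS, MX, IFI6 and IFI27 genes rose after cGAS siRNA (median 3.86), where 11.1% of all genes tested rose. Of the 12, 7 rose after the YAP and TAZ siRNAs, where 20.6% of all genes tested did. After STING siRNA 2 of them rose (background 6.14%), IFI6 by 2.21 ± 0.21 (adjusted p = 2.71e-06) and IFI27 by 1.99 ± 0.26 (adjusted p = 6.52e-05). IFI6 stood at 102 and 109 CPM in control and 386 and 630.3 in STING, and IFI27 at 5.35 and 4.72 CPM in control and 18.2 and 28.8 in STING. Both were called with each of the 4 libraries left out, while 11 of the 12 genes were higher in STING 14 than in STING 13, with a median difference of -0.67 (13 minus 14). In cGAS_YT all 12 were higher in library 9 than in library 10, with a median difference of 1.36. Of 17 interferon receptor, kinase, STAT, IRF and feedback genes, 16 were in the table. After cGAS siRNA IRF7 rose by 1.56 ± 0.22 (adjusted p = 6.4e-05) and STAT2 by 0.78 ± 0.25 (adjusted p = 0.033). IFNAR1 (-0.32 ± 0.09 (adjusted p = 0.0151)), which encodes a chain of the interferon receptor, IRF1 (-0.54 ± 0.08 (adjusted p = 0.000135)) and SOCS3 (-0.57 ± 0.14 (adjusted p = 0.00801)) fell. After the YAP and TAZ siRNAs 9 of the 16 rose (background 20.6%) and SOCS1 fell (background 20.9%). Among the 9 were IFNAR2 with 1.48 ± 0.14 (adjusted p = 2.62e-07) and IRF1 with 1.34 ± 0.08 (adjusted p = 2.17e-09). After STING siRNA IFNAR2, IFNGR2, JAK1 and IRF1 fell (background 8.86%) and none of the 16 rose (background 6.14%). Of 15 sensors and adaptors 12 were in the table. After cGAS siRNA the RNA sensors IFIH1 (2.68 ± 0.26 (adjusted p = 1.52e-06)), DDX58 (2.37 ± 0.23 (adjusted p = 1.85e-06)) and TLR3 (1.64 ± 0.30 (adjusted p = 0.000736)) rose, as did SAMHD1 and MYD88, while MB21D1, the target, and IKBKE fell. None of 8 interferon genes on the list (IFNB1, IFNG, IFNA1 and others) was in the table, and their levels are not analysed here.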

How the data were processed

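Per the submitters' processing notes, STAR 2.5.3a, featureCounts, edgeR and the hg38 build were used; the sources used here do not give annotation or strand setting. Libraries were made with a 3' end kit, per the labels' protocols. The deposited signal values are CPM that the authors scaled by TMM factors (0.969 to 1.025 when recomputed), as read from the file's layout and values. All of them (100%) were whole multiples of the worth of 1 read within 0.01 reads, so whole reads were recovered.

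Groups follow the library titles. The test was limma 3.58.1 (R 4.3.3), two-sided, with an eBayes prior that follows intensity, on log2(CPM + 1) of the 13894 genes that reached 1 CPM in 2 or more libraries. A joint fit of the 12 libraries had 6 residual and 10.1 prior degrees of freedom, with 11 contrasts and Benjamini-Hochberg adjustment over all genes within each contrast at 0.05. Every adjusted p printed is from this test, ± after a difference is its standard error, and the scale understates changes of low genes. Each replicate number occurs once, so nothing was paired.

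The members and lists were chosen with earlier results of these data known. Values in every library are given for the 2 members of each role group with the largest cGAS siRNA difference among those with a mean of at least 5 CPM, the member with the smallest, members called in opposite directions and the 3 largest of each interaction; others were named after their values were seen. The alternatives tried were edgeR 4.0.16 and DESeq2 1.42.0 on the recovered reads, each library left out, separate fits for the groups compared, a prior without the intensity trend, median-of-ratios scaling, filters at 0 or 5 CPM and pseudocounts of 0.25 or 4. Gene positions are from GENCODE on GRCh38. On simulated counts for 13546 genes, the YT against control test found 50.7% of 1.5-fold, 89.6% of 2-fold and 100% of 4-fold changes (5 false among 165 calls), and the cGAS interaction found 14.9%, 62.7% and 100% (5 false among 123). Changes were put only into the YT group, in 66 or 67 genes of each size with a mean of at least 5 CPM. Each gene was drawn independently. The simulation therefore does not cover low genes, or genes that shift together as between the cGAS_YT libraries.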

Additional observations from a re-analysis of the deposited data

Results flagged for a closer look

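The effect of the YAP and TAZ siRNAs differed between cells with and without cGAS siRNA for 8 genes, by the limma test of the interaction itself. Only 6 negative interactions were called by limma, edgeR and DESeq2 alike. The interaction was -1.48 ± 0.38 (adjusted p = 0.0149) for BST2, -1.47 ± 0.36 (adjusted p = 0.012) for IFITM1, -1.15 ± 0.21 (adjusted p = 0.00133) for PARP14 and -1.10 ± 0.21 (adjusted p = 0.00229) for DDX60. It was -0.94 ± 0.28 (adjusted p = 0.0331) for HELZ2, -0.79 ± 0.15 (adjusted p = 0.00204) for TRIM25, -0.78 ± 0.15 (adjusted p = 0.00206) for ADAR and -0.68 ± 0.20 (adjusted p = 0.0322) for IFITM3. For TRIM25 the effect also differed between cells with and without STING siRNA, by -0.77 ± 0.15 (adjusted p = 0.00412).

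In both interactions TRIM25 combined a rise in control cells (0.56 ± 0.11) with a value below 0 in the depleted cells (-0.23 ± 0.11 with cGAS siRNA and -0.21 ± 0.11 with STING siRNA, neither of them called). Both interactions use the same control and YT libraries, and the YAP1 transcript itself had a cGAS interaction of 0.86 ± 0.19 (adjusted p = 0.00516), whose part in these values was not tested. Without library 9 of cGAS_YT the cGAS interactions of BST2 and IFITM1 were -1.98 ± 0.34 (adjusted p = 0.00151) and -2.03 ± 0.26 (adjusted p = 0.000123). Without library 10 they were -0.99 ± 0.34 (adjusted p = 0.0846) and -0.90 ± 0.26 (adjusted p = 0.0434). Calls for HELZ2, IFITM3 and BST2 were lost without library 10 and without other libraries, and that of IFITM1 without control 1 or cGAS 7 (highest adjusted p 0.148, 0.158, 0.0846 and 0.0580 in this order).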

How the results depend on the processing

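No called result of the genes chosen by the naming rule changed direction under any of these alternatives. Among values of the genes chosen by the naming rule, under alternatives other than leaving out a library 2675 kept their direction and their side of the threshold, 67 lost the call and 26 gained it. With a library left out 1308 did, 105 lost the call and 43 gained it. Rescaling moved the median of all genes by under 0.1 in each contrast. With a constant prior, STING against control had 1 gene higher and 0 lower, cGAS_YT against cGAS 2 lower, STING_YT against YT 5 higher, cGAS against STING 0 lower and the cGAS interaction 4 lower. With DESeq2, STING against control had 1 lower, STING_YT against YT 5 higher, cGAS against STING 0 lower and the STING interaction 2 lower. With only the groups compared, cGAS against control had 1 lower, STING against control 9 higher, STING_YT against STING 27 higher and 4 lower, cGAS against STING 2 lower, and the STING interaction 1 higher and 2 lower. The cause was not tested.

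With each library left out, genes called higher numbered 38 to 40 (cGAS against control), 14 to 20 (YT against control), 1 to 3 (STING against control), 36 to 37 (cGAS against STING), 0 to 10 (cGAS_YT against cGAS), 7 to 13 (STING_YT against STING), 29 to 41 (cGAS_YT against YT), 5 to 11 (STING_YT against YT), 26 to 41 (cGAS_YT against STING_YT), 0 to 1 (cGAS interaction) and 0 to 4 (STING interaction). Genes called lower numbered 0 to 0, 0 to 1, 0 to 0, 0 to 0, 1 to 17, 0 to 0, 1 to 4, 6 to 7, 2 to 3, 4 to 26 and 1 to 5 in the same order. Leaving out each library for the counts of group order was added after seeing the data. Where 1 library remains in a group, its spread is taken from the other groups. No paired analysis was possible because each replicate number occurs in only 1 library. Depth limits the genes with few reads in control, namely RSAD2, CMPK2 and RTP4.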

Other observations

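Several of the 46 genes are neighbours. By GENCODE positions on GRCh38, 17 of them lie in 8 clusters with gaps of at most 100 kb. IFI44L and IFI44 lie together on chromosome 1 (78619922 to 78664078) and rose by 5.69 ± 0.27 and 3.14 ± 0.24 after cGAS siRNA. CMPK2 and RSAD2 overlap in opposite orientation on chromosome 2 (6840570 to 6898239) and rose by 4.08 ± 0.47 and 5.70 ± 0.59. PARP9 and DTX3L, also in opposite orientation, lie on chromosome 3 (122527924 to 122575203), and both rose after cGAS siRNA while DTX3L alone rose after the YAP and TAZ siRNAs. The difference between these 2 genes was not tested. HERC6 with HERC5 and DDX60 with DDX60L lie on chromosome 4, and SAMD9 with SAMD9L on chromosome 7. In the IFITM cluster on chromosome 11 (307631 to 327537) the differences after cGAS siRNA ranged from -0.24 for IFITM2 to 3.15 for IFITM1.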
